A study of Rattus norvegicus with 12 samples.

Results

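Complex I of the mitochondrial respiratory chain was examined here through every probe set that the array annotation pairs with exactly 1 gene symbol beginning with Nduf. The rule gave 46 probe sets for 42 genes, out of 31042 probe sets on the array after its own controls were removed, 20826 of which had 1 symbol. Subunits made up 39 probe sets of 36 genes, and assembly factors, whose symbols begin with Ndufaf, made up 7 probe sets of 6 genes. The subunit counts and medians include Ndufa4 and Ndufa4l2, which are described apart. The rule reads gene names only. All 46 symbols matched the RefSeq gene table by gene identifier. No probe set with 1 symbol named Ndufa10, Ndufs5, Ndufaf2 or Ndufaf6, and these are not described as members.

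Complex I takes electrons from NADH, passes them through a flavin and a chain of iron-sulfur clusters to ubiquinone, and pumps protons across the inner mitochondrial membrane. Its matrix arm consists of an N module, which oxidises NADH, and a Q module, which reduces ubiquinone, while its membrane arm carries the proton pumps and is built from a proximal and a distal part. A core conserved from bacteria is surrounded by accessory subunits, and assembly factors join the pieces without staying in the finished enzyme. The heart, which beats without rest on fatty acid and carbohydrate oxidation, is among the tissues richest in this enzyme. The core subunits of the membrane arm are encoded in mitochondrial DNA and carry other gene symbols, so the Nduf genes are the nuclear share of the complex.

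The study measured messenger RNA in whole heart tissue of rats on 12 single-colour 3′ oligonucleotide arrays, 1 array for each heart, and asked what differs in heart failure. The 6 failing hearts belong to a model of the passage to systolic failure in the spontaneously hypertensive rat, an inbred strain with inherited high blood pressure. The 6 control hearts are labelled as control only. The sources used here name neither the strain nor the age of the controls, nor the age and sex of the failing animals or the region of the heart taken, so strain, blood pressure and failure cannot be told apart in the comparison. The submitters call the hearts biological replicates. Captopril-treated groups named in the protocol are not analysed here.

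Promoter sequence is shown for 3 members because they include both members that passed the test in the fit described next, a choice made with those calls known. The third, Ndufaf5, was higher on average in failing hearts, by 0.11 on the log2 scale (limma adjusted p = 0.781). The 250 bases before the annotated start of 40 of the 42 genes were searched in RefSeq promoters of assembly GRCr8, on both strands, for 3 motifs. They were GCGCA joined directly to its reverse complement, the palindrome of nuclear respiratory factor 1 (NRF1), TNAAGGTCA of estrogen-related receptors and CCGGAAG of GA-binding protein, factors known to act on genes of the respiratory chain. The NRF1 letters, in capitals here, stood in the promoters of Ndufa11 (chr9:1637364-1637613, + strand, with 2 overlapping matches), Ndufaf4 (chr5:43401545-43401794, + strand) and Ndufaf5 (chr3:147961362-147961611, + strand).
Ndufa11: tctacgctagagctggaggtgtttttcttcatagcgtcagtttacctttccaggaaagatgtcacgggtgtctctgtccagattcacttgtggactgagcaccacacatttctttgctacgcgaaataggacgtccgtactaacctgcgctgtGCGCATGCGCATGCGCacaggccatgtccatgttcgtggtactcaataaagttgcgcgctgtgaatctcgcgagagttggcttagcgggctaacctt
Ndufaf4: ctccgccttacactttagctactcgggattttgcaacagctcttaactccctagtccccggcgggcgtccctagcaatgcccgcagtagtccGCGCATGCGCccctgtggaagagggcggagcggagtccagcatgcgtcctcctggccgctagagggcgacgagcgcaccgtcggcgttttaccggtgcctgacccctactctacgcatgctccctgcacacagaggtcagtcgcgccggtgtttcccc
Ndufaf5: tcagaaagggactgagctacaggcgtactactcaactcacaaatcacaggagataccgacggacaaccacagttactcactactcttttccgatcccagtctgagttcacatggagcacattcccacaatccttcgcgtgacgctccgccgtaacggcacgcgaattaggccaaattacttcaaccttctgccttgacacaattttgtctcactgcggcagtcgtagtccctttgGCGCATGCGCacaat
The first base of the match lay 97 bases before the start of Ndufa11, 158 before that of Ndufaf4 and 15 before that of Ndufaf5. These 3 genes were 7.5% of the member promoters, beside 0.762% of 33469 rat promoters of the same length. The GA-binding protein letters were found in 9 member promoters (22.5%), those of Ndufa1, Ndufa2, Ndufa6, Ndufa13, Ndufb7, Ndufs1, Ndufs8, Ndufaf1 and Ndufaf8, beside 7.27% of all promoters. The estrogen-related receptor letters were found in 0 member promoters and in 1.04% of all. Ndufa11 and Ndufaf4 had no match to the GA-binding protein letters. A match is a string of letters and not a bound site, and whether matches go with the differences between hearts was not tested.

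Nduf transcripts were lower on average in failing hearts across nearly the whole complex. A total of 44 of 46 probe sets had a lower mean in failing hearts, 38 of 39 for subunits and 6 of 7 for assembly factors, while 50.1% of 15521 brighter probe sets did so. Values are log2 of the deposited linear intensity, and differences are failing minus control. The median difference was -0.31 over subunit probe sets and -0.30 over assembly factor probe sets, beside 0.00 over the brighter probe sets. Without Ndufa4 and Ndufa4l2, 36 of 37 subunit probe sets had a lower mean in failing hearts, and their median was also -0.31. The hearts vary together in these genes, so the count of probe sets is not a count of independent observations. In bulk tissue, fewer cells of a type and less RNA per cell cannot be told apart.

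Single probe sets seldom passed the test when all 12 hearts were used. Each was tested with limma, two-sided, and was called when its p, adjusted by Benjamini-Hochberg over every probe set in the fit, was under 0.05. In the fit over all 31042 probe sets 0 members were called in either direction, and so was 0% of the array. At an unadjusted p under 0.05 that fit had 19 members lower and 1 higher, beside 7.23% of all probe sets lower and 7.25% higher. By an exact rank-sum permutation test over all probe sets, 25 members were lower and 1 higher at that unadjusted p. Ranks of 12 hearts limit how small its p can be, and its lowest adjusted p was 0.142. That test called 0 members and 0% of the array, so its count cannot be set against limma's. The second fit kept the 15521 brighter probe sets, those with a mean over the 12 hearts at or above the array's median, 6.94 (an intensity of 123), and all 46 members were among them. It called 2 members lower, Ndufaf4 and Ndufa11, and 0 higher, where 1.48% of the brighter probe sets were called lower and 2.76% higher. For these 2 members every failing heart also lay below every control heart, which held for 0.844% of brighter probe sets. Adjusted p-values given from here on are limma's in the brighter fit unless stated otherwise.

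**Figure D1:**
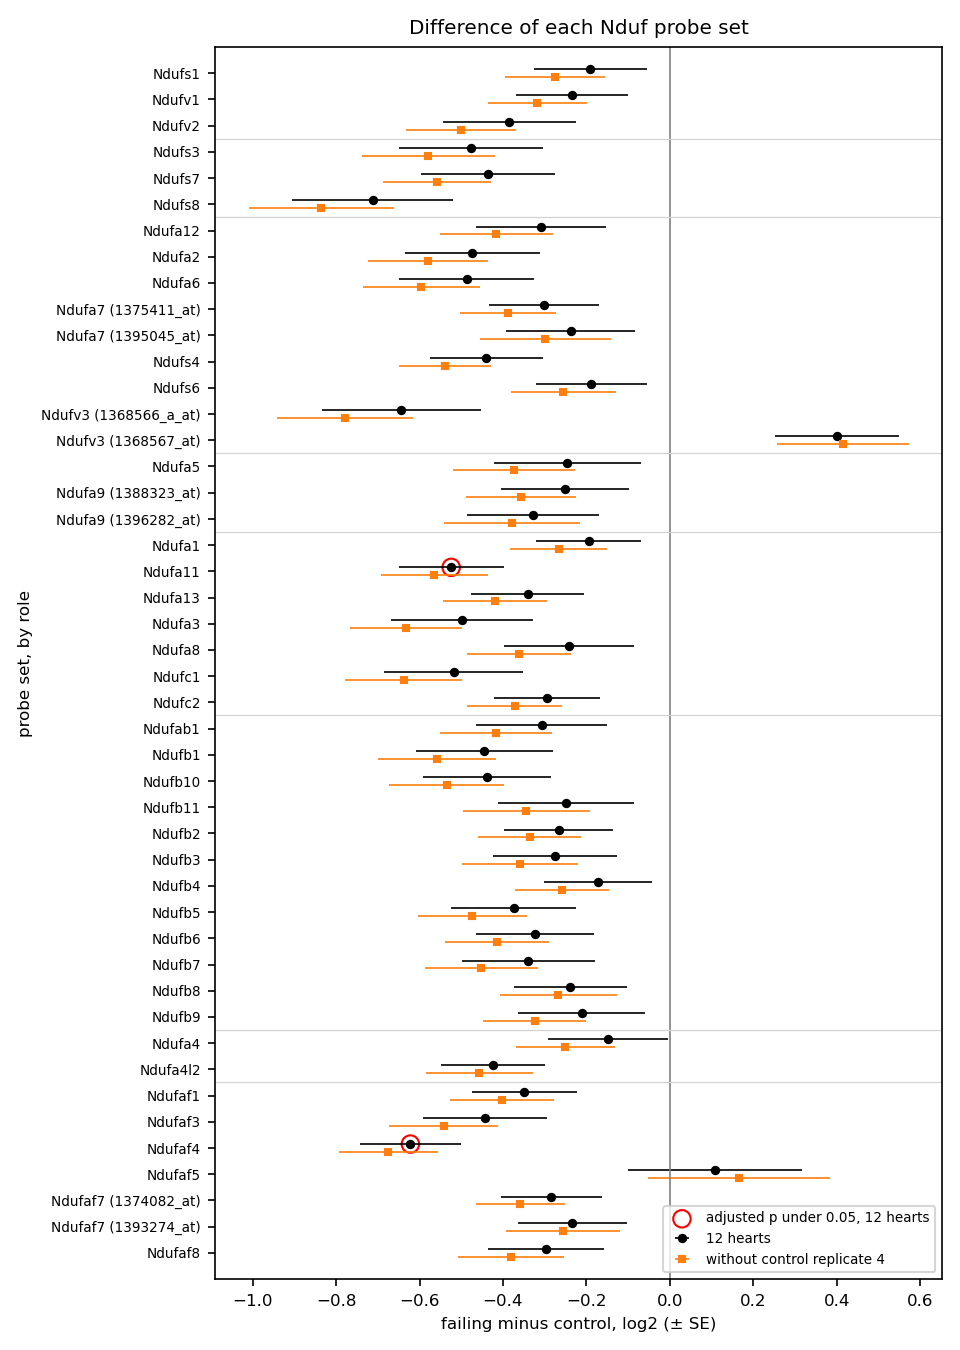
Difference between failing and control hearts of each Nduf probe set (horizontal axis, log2, bars ± SE of the brighter fit), in order of role down the page, with 12 hearts (black circles) and without control replicate 4 (orange squares). All but 2 of the 46 probe sets lie left of 0, and red rings mark Ndufa11 and Ndufaf4, called with 12 hearts.

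Ndufaf4, an assembly factor of the Q module that works with Ndufaf3, had the smallest p of the members. Its level was 11.19 at the lowest, 11.45 at the median and 11.75 at the highest in failing hearts, against 11.82, 12.10 and 12.23 in control hearts. The groups did not overlap, and failing replicate 5 and control replicate 4 were the nearest to each other. Ndufaf4 fell to 0.650 of control, a log2 difference of -0.62 ± 0.12 (SE, 95% interval -0.88 to -0.36, adjusted p = 0.0273). The call was kept without 8 of the 12 hearts taken singly and lost without failing replicate 3, failing replicate 4, control replicate 1 or control replicate 6, with adjusted p between 0.00800 and 0.0681. RefSeq lists 5 pseudogenes of Ndufaf4, and whether its probes also read them was not tested.

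Ndufa11, a membrane subunit known to sit where complex I meets complex III in supercomplexes, was the other called member. Failing hearts ran over 12.49, 12.98 and 13.22 (lowest, median and highest), against 13.27, 13.48 and 13.62 in control hearts. Again all failing hearts lay below all control hearts, with failing replicate 3 far below the rest. Ndufa11 fell to 0.695 of control, a log2 difference of -0.52 ± 0.13 (95% interval -0.79 to -0.25, adjusted p = 0.0402). Its call was kept without failing replicate 5 or control replicate 4 and lost without any of the other 10 hearts, with adjusted p between 0.0186 and 0.0936.

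Control replicate 4 stood apart from the other controls in these genes. It was the lowest control heart in 37 of 39 subunit probe sets and lay below the failing median in 35 of them. Among failing hearts, replicate 3 was the lowest in 34 of 39 and replicate 5 the highest in 33. The median of the subunit probe sets, each centred on its mean over 12 hearts, was -0.51 in failing replicate 3, -0.35 in replicate 6, -0.14 in replicate 4, -0.12 in replicate 1, -0.03 in replicate 2 and 0.17 in replicate 5. In control hearts it was 0.37, 0.28 and 0.29 in replicates 1, 2 and 3, 0.14 and 0.24 in replicates 5 and 6, and -0.30 in replicate 4. Control replicate 4 thus lay within the range of the failing hearts, and failing replicate 5 lay above control replicate 5.

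**Figure D2:**
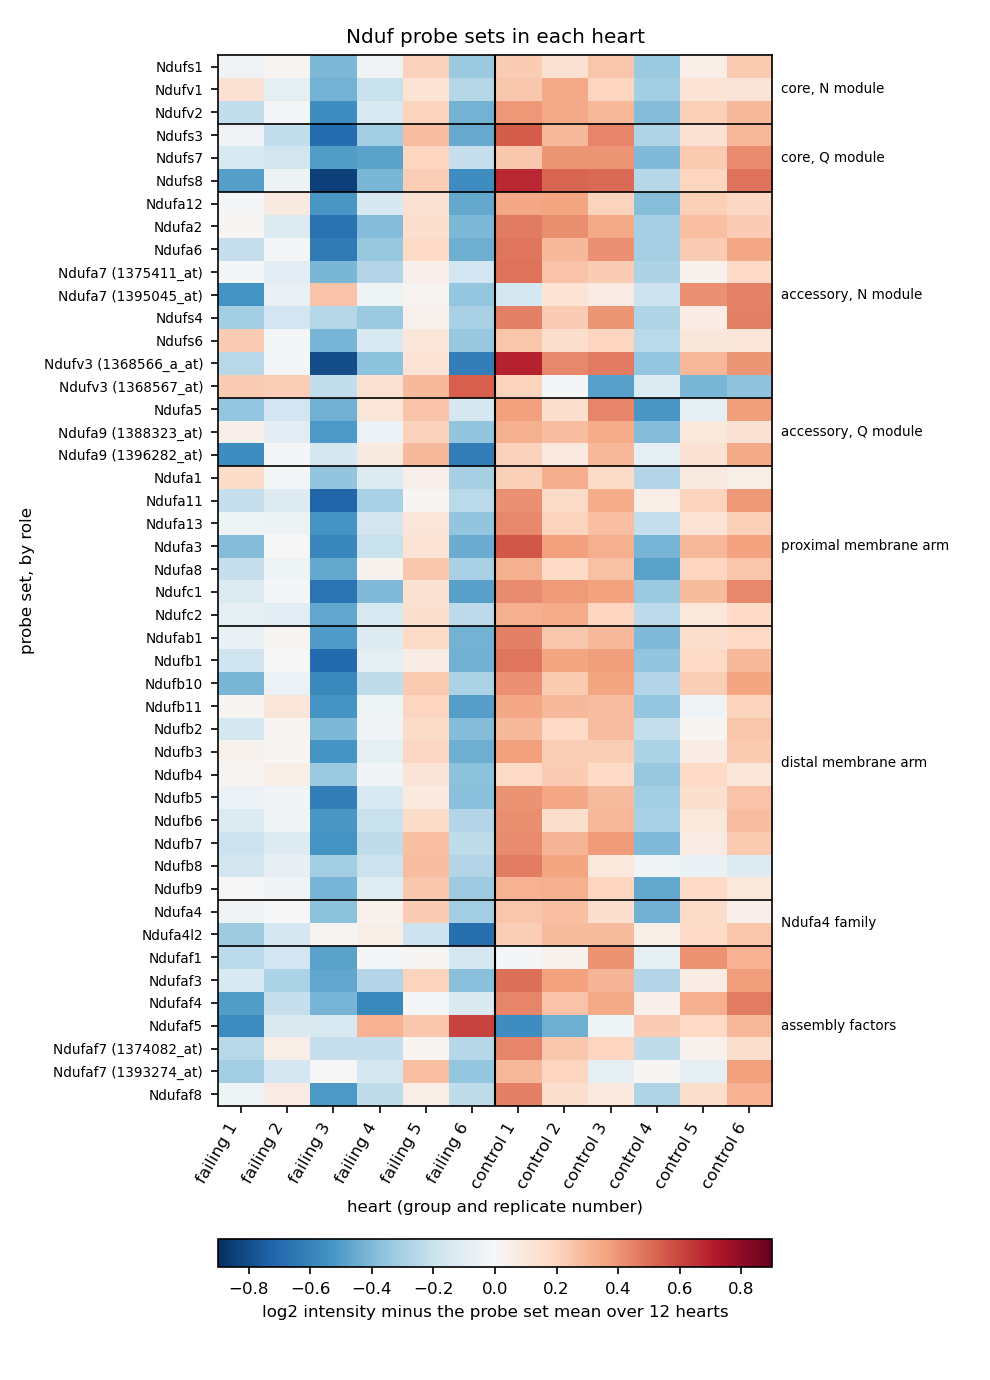
Level of each Nduf probe set (rows, by role) in each heart (columns, failing left and control right) as log2 intensity minus that probe set's mean over 12 hearts, from blue (lower) to red (higher). Failing replicates 3 and 6 and control replicate 4 are blue through most subunits, while failing replicate 5 is pale red, and Ndufaf5 and the dimmer Ndufv3 probe set follow another pattern.

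Every comparison was therefore also made without control replicate 4. The heart was singled out for its low level of these genes, so the differences grow by construction and the counts that follow are descriptions. Without it, 24 of 46 members were called lower and 0 higher in the brighter fit, against a background of 6.75% lower and 6.67% higher, with 20 of them among 39 subunit and 4 among 7 assembly factor probe sets. The median difference was -0.41 over subunits and -0.38 over assembly factors, beside 0.01 over the brighter probe sets. Groups that did not overlap, failing below control, were seen for 16 of 46 members and 4.85% of brighter probe sets. The fit over all probe sets called 0 members in either direction (background 0.00322% lower and 0% higher), with an adjusted p of 0.0652 for Ndufaf4. At an unadjusted p under 0.05 it had 34 members lower and 1 higher, beside 9.25% of all probe sets lower and 9.07% higher. Leaving out 1 further heart gave between 7 members (without control replicate 1, background 2.23%) and 34 members (without failing replicate 5, background 9.77%). In each of these 11 fits 7 members were called, namely Ndufa3, Ndufaf4, Ndufc1, Ndufs4, Ndufs7, Ndufs8 and the brighter Ndufv3 probe set. The share of brighter probe sets called lower in all 11 fits was not counted, and it can be at most 2.23%.

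The Q module core, which carries electrons to the ubiquinone site, had the most negative median of the roles, -0.48 over 3 probe sets with a range of -0.71 to -0.44. Ndufs8, a ferredoxin-like subunit that holds iron-sulfur clusters, had 11.71, 12.09 and 12.77 in failing hearts at the lowest, median and highest, against 12.29, 13.05 and 13.23 in control hearts. The groups overlapped through control replicates 4 and 5 and failing replicates 2 and 5. Its log2 difference of -0.71 ± 0.19 was the most negative of the 46 but did not pass with 12 hearts (adjusted p = 0.0539), and without control replicate 4 it was -0.84 ± 0.17 (adjusted p = 0.0158). Ndufs3, needed early in assembly of the Q module, and Ndufs7, which holds the last iron-sulfur cluster before ubiquinone, differed by -0.48 ± 0.17 (adjusted p = 0.113) and -0.44 ± 0.16 (adjusted p = 0.117). Both passed without control replicate 4, at adjusted p = 0.0338 for Ndufs3 and 0.0195 for Ndufs7. The accessory Q module probe sets, of Ndufa5 and Ndufa9, ran from -0.33 to -0.25. Of these 3, 0 were called with or without control replicate 4 (background 1.48% and 6.75% lower). In the fit over all probe sets with 12 hearts, 0 had an unadjusted p under 0.05 (background 7.23% lower).

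The N module core was less far from control, with a median of -0.23 over 3 probe sets, although the roles were not tested against each other. Ndufv1, which binds the flavin and NADH, differed by -0.23 ± 0.13 (adjusted p = 0.293) and Ndufs1, which holds several iron-sulfur clusters, by -0.19 ± 0.14 (adjusted p = 0.399). Failing hearts had 13.47 to 14.03 for Ndufv1, against 13.59 to 14.24 in control hearts, so the groups overlapped widely. Neither passed without control replicate 4, at adjusted p = 0.0889 for Ndufv1 and 0.136 for Ndufs1. Ndufv2, which carries a further iron-sulfur cluster, differed by -0.38 ± 0.16 (adjusted p = 0.156) and passed without control replicate 4, at -0.50 ± 0.13 (adjusted p = 0.0295).

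**Figure D3:**
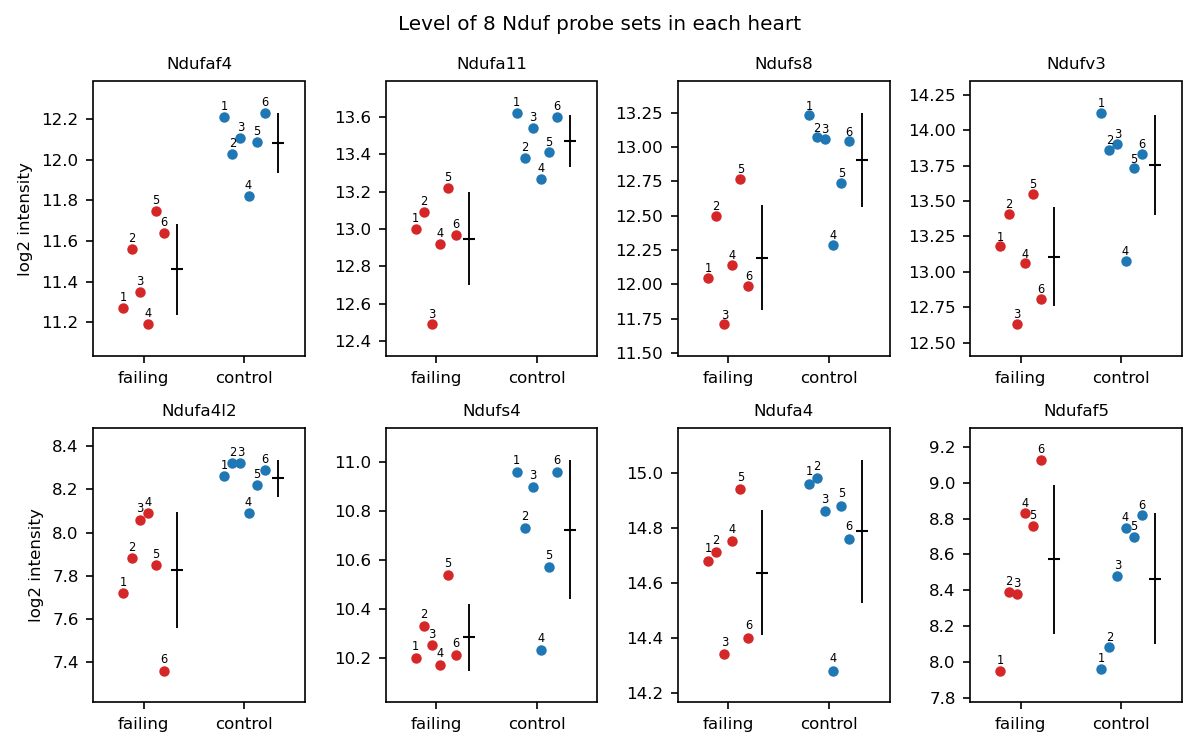
Log2 intensity of 8 Nduf probe sets in each heart (points, numbered by replicate; failing left in red, control right in blue), with the group mean ± SD beside them (n = 6 each); Ndufv3 is the brighter probe set. Failing and control hearts separate for Ndufaf4 and Ndufa11, whereas control replicate 4 falls among the failing hearts for Ndufs8, Ndufv3 and Ndufs4, and the groups mix for Ndufaf5.

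Accessory subunits of the N module held 9 probe sets, 8 of them lower on average in failing hearts, with a median of -0.31. Of these 9, 0 were called with 12 hearts (background 1.48% lower) and 5 were called lower without control replicate 4 (background 6.75%). In the fit over all probe sets with 12 hearts, 4 were lower and 1 higher at an unadjusted p under 0.05 (background 7.23% and 7.25%). Ndufs4, whose loss causes Leigh-like disease in mouse and human, had 10.17, 10.23 and 10.54 in failing hearts, against 10.23, 10.81 and 10.96 in control hearts. Only control replicate 4 lay below failing replicate 5, the highest failing heart. The log2 difference was -0.44 ± 0.14 (adjusted p = 0.0717), and -0.54 ± 0.11 without control replicate 4 (adjusted p = 0.0150). Ndufa6, which anchors an acyl carrier protein in the matrix arm, differed by -0.49 ± 0.16 (adjusted p = 0.0896), and by -0.60 ± 0.14 without that heart (adjusted p = 0.0201).

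Both directions met in Ndufv3, an accessory subunit of the N module that in mouse and human is made in a long and a short form. Its brighter probe set had 12.63, 13.12 and 13.55 in failing hearts, against 13.08, 13.84 and 14.12 in control hearts. Control replicate 4 was again the only control within the failing range. The difference was -0.64 ± 0.19 (adjusted p = 0.0652), and -0.78 ± 0.16 without that heart (adjusted p = 0.0156). Its dimmer probe set had 7.89, 8.34 and 8.65 in failing hearts, against 7.62, 7.87 and 8.31 in control hearts, which overlapped. That difference was 0.40 ± 0.15, a fold of 1.32 (95% interval of the log2 difference 0.08 to 0.72, adjusted p = 0.119, and 0.0926 without control replicate 4), the most positive of all members. Which transcript each probe set reads was not tested, and the other 3 genes with more than 1 probe set (Ndufa7, Ndufa9 and Ndufaf7) had the same sign in both.

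In the proximal membrane arm all 7 probe sets were lower on average in failing hearts, with a median of -0.34 and a range of -0.52 to -0.19. Besides Ndufa11, this group gave Ndufc1 and Ndufa3, small subunits that span the membrane. Ndufc1 had 13.01, 13.41 and 13.81 in failing hearts, against 13.34, 14.05 and 14.11 in control hearts, and differed by -0.52 ± 0.17 (adjusted p = 0.0835). Ndufa3 had 13.07, 13.37 and 13.78 in failing hearts, against 13.24, 14.00 and 14.22 in control hearts, and differed by -0.50 ± 0.17 (adjusted p = 0.0981). For both, control replicate 4 alone lay among the failing hearts, and both passed without it (adjusted p = 0.0178 for Ndufc1 and 0.0164 for Ndufa3). Without that heart all but Ndufa1 and Ndufa8 were called, 5 of the 7 (background 6.75%).

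In the distal membrane arm all 12 probe sets were lower on average, with a median of -0.29 and a range from -0.44 for Ndufb1 to -0.17 for Ndufb4. None of the 12 was called with 12 hearts (background 1.48%). In the fit over all probe sets 3 were lower at an unadjusted p under 0.05 (background 7.23%). Without control replicate 4, 5 of the 12 were called (background 6.75%), namely Ndufb1, Ndufb5, Ndufb6, Ndufb7 and Ndufb10, names picked after their values were seen. Ndufab1, the mitochondrial acyl carrier protein that also serves fatty acid synthesis, had 13.60, 14.02 and 14.28 in failing hearts, against 13.71, 14.32 and 14.56 in control hearts. The groups overlapped, and its difference of -0.31 ± 0.16 did not pass with 12 hearts (adjusted p = 0.239) or without control replicate 4 (adjusted p = 0.0553).

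The Nduf name also covers Ndufa4, now assigned to cytochrome c oxidase, and its paralogue Ndufa4l2, a hypoxia-induced protein known to restrain complex I activity. Ndufa4 had 14.34, 14.70 and 14.94 in failing hearts, against 14.28, 14.87 and 14.98 in control hearts. The groups overlapped over nearly their whole range, and the difference was -0.15 ± 0.14 (95% interval -0.46 to 0.16, adjusted p = 0.547, and 0.170 without control replicate 4). Ndufa4l2 had 7.36, 7.86 and 8.09 in failing hearts, against 8.09, 8.28 and 8.32 in control hearts. Only failing replicate 4 and control replicate 4 met. Its difference was -0.42 ± 0.12 (adjusted p = 0.0636), and -0.46 ± 0.13 without control replicate 4 (adjusted p = 0.0364).

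Among assembly factors besides Ndufaf4, Ndufaf3, its partner in Q module assembly, had 10.73, 10.92 and 11.40 in failing hearts, against 10.93, 11.53 and 11.69 in control hearts. Control replicates 4 and 5 lay within the failing range. The difference was -0.44 ± 0.15 (adjusted p = 0.0932), and -0.54 ± 0.13 without control replicate 4 (adjusted p = 0.0213). Ndufaf1, which helps to build the membrane arm, differed by -0.35 ± 0.13 (adjusted p = 0.112) and passed narrowly without that heart (adjusted p = 0.0497). Ndufaf7, a methyltransferase of the mitochondrial matrix, differed by -0.28 ± 0.12 in its brighter probe set (adjusted p = 0.164, and 0.0451 without that heart). Ndufaf8, a partner of Ndufaf5, differed by -0.30 ± 0.14 (adjusted p = 0.203, and 0.0630 without that heart). Ndufaf5, which hydroxylates an arginine of Ndufs7, had 7.95, 8.58 and 9.13 in failing hearts, against 7.96, 8.59 and 8.82 in control hearts. Those ranges nearly coincided, and the difference was 0.11 ± 0.21 (95% interval -0.34 to 0.56, adjusted p = 0.781).

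Other complexes of the chain also had negative median differences. The median difference was -0.28 for complex II (5 probe sets), -0.22 for complex III (9), -0.19 for complex IV (11) and -0.19 for ATP synthase (15), with 0 called in any of the 4 lists with 12 hearts and 2 called lower in each without control replicate 4 (background 6.75%). The number lower at an unadjusted p under 0.05 in the fit over all probe sets was 1, 0, 1 and 1 in the same order, beside 7.23% of all probe sets, with 0 higher in each. The differences between these lists and the Nduf genes were not tested. The member with the smallest p was Sdhd in complex II (-0.35, adjusted p = 0.133), Uqcrq in complex III (-0.34, adjusted p = 0.169), Cox7a1 in complex IV (-0.68, adjusted p = 0.129) and Atp5f1d in ATP synthase (-0.37, adjusted p = 0.138). Assembly factors of complex I with other names had a median of -0.27 over 12 probe sets and a range of -0.46 to 1.95, with 3 higher on average in failing hearts. At an unadjusted p under 0.05 in the fit over all probe sets, 5 were lower and 1 higher (background 7.23% and 7.25%). Dmac2, an assembly factor of the membrane arm, had the smallest p. It differed by -0.42 ± 0.11 (adjusted p = 0.0522) with no overlap between groups, as for 0.844% of brighter probe sets. The regulator list had a median of -0.19 and a range of -1.36 to 1.17, with 4 of 15 probe sets higher on average in failing hearts. In it Ppargc1b, a coactivator of mitochondrial genes, fell by 0.76 on the log2 scale (adjusted p = 0.0182). It was the 1 probe set called of 10 among the brighter (background 1.48%). That call was lost without control replicate 1 (adjusted p = 0.0506) and without control replicate 6 (adjusted p = 0.0553). By the exact rank-sum test Ppargc1b had an adjusted p of 0.0825, the lowest of any brighter probe set and the same as that of Ndufaf4. Ranks of 6 against 6 hearts limit how small the p of a probe set can be, and 0 brighter probe sets passed, so that test cannot bear on the call. Mitochondrial content genes had a median of -0.24, and Tfam, which packages mitochondrial DNA, differed by -0.38 (adjusted p = 0.0751).

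**Figure D4:**
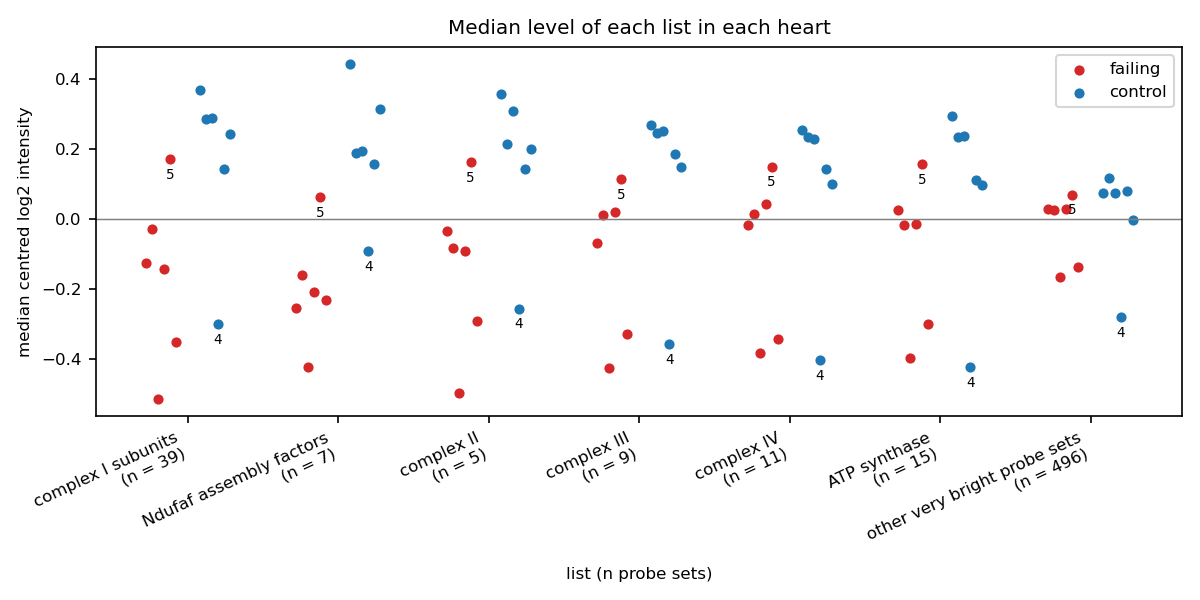
Median centred log2 intensity (vertical axis) of subunits, Ndufaf assembly factors, complexes II to IV, ATP synthase and the other very bright probe sets in each heart, failing (red) left and control (blue) right within each list, with failing replicate 5 and control replicate 4 numbered. Control replicate 4 lies below the other controls in all 7 lists, and failing replicate 5 is the highest failing heart in each.

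Other probe sets of similar brightness lay nearer to 0, a difference that was not tested. The 30 Nduf probe sets with a mean of at least 13 had a median difference of -0.32, and the 496 other probe sets at or above 13 had -0.02 (without control replicate 4, -0.42 for Nduf and -0.08 for the others). Control replicate 4 was low in the other very bright probe sets too, at a median of -0.28 where the other controls had -0.00 to 0.12. That heart had the highest median intensity of the 12 arrays, 144.2, where failing hearts had 123.8 to 136.3 and the other controls 120.8 to 133.3. Its 3′ minus 5′ difference of the Gapdh and actin control probe sets was the lowest, 0.36, where failing hearts had 0.50 to 0.70 and the other controls 0.44 to 0.78. With that difference as a covariate the brighter fit called 2 members lower (background 1.99%), as many as without it (background 1.48%).

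**Figure D5:**
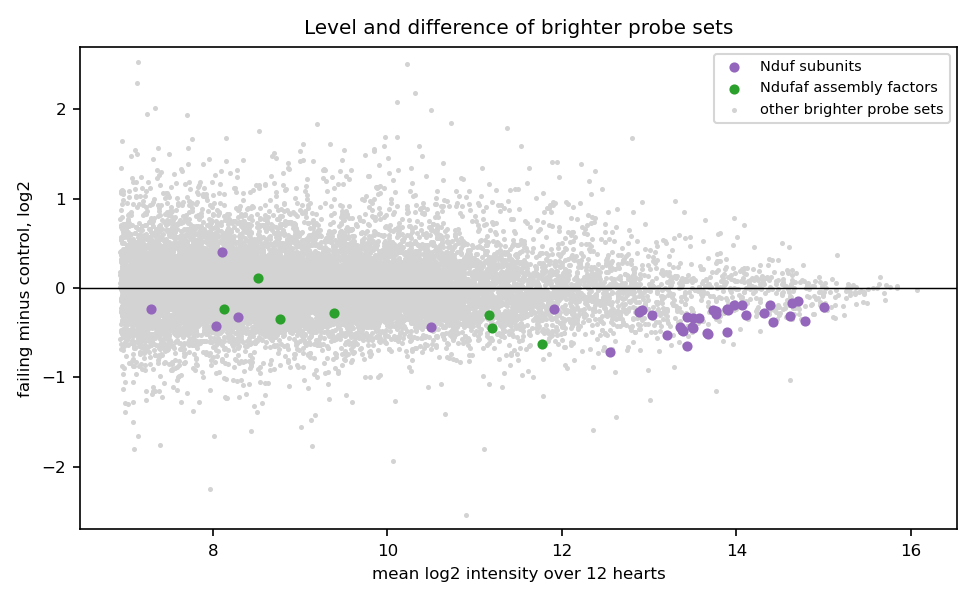
Failing minus control difference (vertical axis, log2) against mean log2 intensity over 12 hearts (horizontal axis) for the 15521 brighter probe sets, with Nduf subunits in purple, Ndufaf assembly factors in green and all others in grey. The 30 Nduf probe sets at or above 13 all lie below 0, while the other very bright probe sets are centred near 0.

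Marker genes of the cell types in heart tissue were read in the same arrays. Heart muscle markers were present, with the summed intensity of 9 measured genes of 10 between 228656 and 358630 in failing hearts, against 225450 (control replicate 4) and 371304 in control hearts. Of these 9, 0 were called with 12 hearts, and 1 was called lower without control replicate 4 (background 6.75%). Fibroblast markers summed to 71040 to 132374 in failing hearts, against 56754 to 81272 in control hearts, with 3 of 9 called higher (background 2.76%). The median of their probe sets, centred as above, was -1.06 in failing replicate 1, below every control heart (lowest -0.80). In the other failing hearts it was 0.05 to 0.94. Macrophage markers summed to 6794 to 21621 in failing hearts, against 5476 to 9181 in control hearts, with 3 of 8 called higher (background 2.76%). Endothelial markers summed to 9354 to 14588, against 7680 to 10120, with 1 of 4 called higher, beside the same background. Not all of these markers were higher. On average in failing hearts 1 of 8 macrophage probe sets was lower (-0.58), as were 2 of 5 endothelial probe sets (the lowest -0.24). Lymphocyte markers summed to 298 to 695 in failing hearts, against 358 to 762 in control hearts, with Cd3d as low as 2.1 in intensity. Of the 7 lymphocyte genes measured, 1 was in the brighter fit, and it was not called. The part of cell composition in the Nduf differences was not tested. The median of the heart muscle markers was -0.45 in control replicate 4, centred as above, and 0.12 to 0.28 in the other controls. In failing hearts it ran from -0.37 in replicate 3 and -0.24 in replicate 6 to 0.19 in replicate 5. These were also the 2 lowest and the highest failing hearts for the subunits. The median difference of the 15 heart muscle marker probe sets was -0.20, with a range of -2.19 to 0.31. Of these, 11 were lower and 4 higher on average in failing hearts. At an unadjusted p under 0.05 in the fit over all probe sets, 4 were lower and 0 higher (background 7.23% and 7.25%).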

How the data were processed

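Total RNA of rat heart tissue was labelled with biotin and hybridised to 1-colour arrays, per the labels' protocols. The tissue field gives heart, which was followed, while a free-text field has cell line. The authors deposited 1 table of linear intensity values with a column for each heart. RMA is named, without a version, in the submitters' processing notes, although RMA usually gives log2 values, so the summary method is not settled. A scaling common to all arrays would hide a shift of most genes in 1 direction.

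Log2 was taken of each intensity without an offset, and 57 control probe sets were left out. The test was that of limma 3.58.1 (R 4.3.3), a linear model with a term for group and moderated variances, run over all probe sets and over the brighter ones. Adjusted p-values cover every probe set in a fit. Genes were named from the platform annotation, and 20 of the 42 have a pseudogene or copy in RefSeq. Promoters came from RefSeq, assembly GRCr8. The array files name no build, so no probe positions are given. Figures used matplotlib 3.10.9.

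The members, lists and motifs were chosen with earlier results of these data known. The rule named the 10 members with the smallest p over all probe sets, the core subunits, the 2 most positive members, Ndufa4, Ndufa4l2, Ndufab1, the brightest probe set of each Ndufaf gene, the member with the smallest p of each comparison list, and genes whose probe sets differ in sign. Alternatives covered filters on dim probe sets, variance models, array weights, normalization, an offset, a rank-sum test, 1 probe set for each gene, thresholds, a replicate block, an RNA quality covariate and leaving out each heart. In simulated data the brighter fit recovered 24% of differences of 0.5 and 76% of differences of 1 (log2), and the fit over all probe sets 6% and 34%. That simulation drew independent normal noise for each probe set and changed only a small part of them. The members vary together, so these rates are not the power for them. Precision is limited by the number of arrays.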

Additional observations from a re-analysis of the deposited data

Results flagged for a closer look

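Of 140 groups of 6 hearts examined, 32 had a heart whose gap to its nearest neighbour was large for the group's range, where chance gives about 1 in 20. In all 32 the heart was control replicate 4, at the low end. The groups are not independent, since these genes vary together. The log2 intensities of that heart, with the range of the other 5 controls, were 13.64 for Ndufs1 (14.03 to 14.22), 13.59 for Ndufv1 (14.01 to 14.24), 14.03 for Ndufv2 (14.63 to 14.81) and 12.96 for Ndufs7 (13.59 to 13.78) among core subunits. Among accessory subunits of the matrix arm it had 14.23 for Ndufa12, 13.07 for Ndufa2, 13.59 for Ndufa6, 13.82 for Ndufs6 and 13.37 for the brighter Ndufa9 probe set. In the membrane arm it had 13.24 for Ndufa3, 13.25 for Ndufa8, 13.34 for Ndufc1, 13.71 for Ndufab1, 13.15 for Ndufb1, 13.23 for Ndufb10, 14.29 for Ndufb4, 14.48 for Ndufb5 and 14.55 for Ndufb9. Ndufa4 was at 14.28, and outside the Nduf genes Uqcrq was at 14.05 and Cox7a1 at 9.45, where the other controls had 10.61 to 10.77 for Cox7a1.

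The same heart was flagged in medians of centred log2 values. It had -0.30 for complex I subunits, -0.32 for core subunits, -0.30 for the N module and -0.26 for the proximal membrane arm. Other assembly factors had -0.27, complex II -0.26, complex III -0.36, complex IV -0.40 and ATP synthase -0.42. Probe sets at or above 13 that are not Nduf had -0.28 and heart muscle markers -0.45. Ndufaf4 and Ndufa11, the 2 members called with 12 hearts, were not flagged in any group.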

How the results depend on the processing

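Under every alternative run 0 members were called higher, and the medians of subunits and of assembly factors stayed negative, from -0.41 to -0.25 and from -0.38 to -0.24 as single hearts were left out. Counts called lower moved more. Over all probe sets the count of 0 became 2 with an intensity trend (background 0.599%), 2 with a mean of at least 7 (1.55%) and 8 of 38 with a mean of at least 10 (6.86%), where fewer probe sets were tested, and it was 0 without any 1 heart. In the brighter fit the count of 2 became 20 with array weights (background 6.87%), 4 with a trend (2.7%), 8 of 38 with a mean of at least 10 (6.86%) and 1 with median centring (0.876%). By the exact rank-sum test it was 0 (0%). There ranks of 6 against 6 hearts limit how small a p can be. Every adjusted p was at or above 0.0825, so that count cannot be set against limma's. The count was 0 at a threshold of 0.01 (0%) and 11 at 0.1 (5.28%). It ran from 0 to 24 as single hearts were left out, with 0 without control replicate 1 or 6 or failing replicate 3 or 4, 10 without failing replicate 5 (4.25%) and 24 without control replicate 4 (6.75%). Without control replicate 4, added fits leaving out 1 more heart gave 7 to 34 in place of 24 (background 2.23% to 9.77%). Over all probe sets they gave 0 to 11 in place of 0, with 11 without failing replicate 5. The share of all probe sets called there was not counted, so the 11 cannot be set against a background. In the brighter fit that setting called 9.77% lower. Ndufaf5 reversed to -0.0023 without failing replicate 6 (adjusted p = 0.997). Where not stated, the cause was not tested. All brighter probe sets called lower and higher were 230 and 429, against 136 and 395 with median centring, 59 and 222 with the replicate block and 1067 and 1203 with array weights.

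Replicate numbers did not pair the hearts, as deviations of same-numbered hearts correlated between -0.06 and 0.23. The brighter fit with the replicate block called 1 member lower (background 0.38%). The 12 arrays limit what single probe sets can show, no detection calls or batches were given, and the controls' strain is not given.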

Other observations

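The 2 probe sets that carry an Nduf symbol together with another symbol were left out of all counts, since their signal cannot be given to 1 gene. The probe set shared by Ndufs5-ps2 and Ndufs5 had 13.34 to 13.85 in failing hearts, against 13.37 (control replicate 4) to 14.18 in control hearts, a difference of -0.37 ± 0.15 (SE; limma adjusted p = 0.150, and 0.0197 without control replicate 4). The probe set shared by Ndufa10 and Ndufa10l1 had 11.37 to 11.95 in failing hearts, against 11.24 (control replicate 4) to 12.19 in control hearts, a difference of -0.27 ± 0.16 (limma adjusted p = 0.327, and 0.0396 without control replicate 4). In both, control replicate 4 was the lowest control heart, and the other 5 controls lay above every failing heart.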
